A study of Mus musculus with 6 samples.

Results

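The transcription factors that pattern the dorsal forebrain were examined in neurospheres with and without a conditional knockout of Ash2l. They were Pax6, Emx1, Emx2, Lhx2, Gli3, Nr2f1, Nr2f2, Dmrta1 and Dmrt3, taken by gene symbol from a deposited table of 54532 genes. All 9 were found once each, and all 9 passed the filter on low counts, with 22 to 5477 reads per library. RNA came from primary neurospheres, floating colonies of neural progenitors, grown for 6 days from E14.5 C57BL/6 mouse embryos with EGF and bFGF, each at 20 ng/ml. The WT group had 3 libraries (numbered 3, 6 and 7 by the submitters) of genotype WT, and the KO group had 3 libraries (1, 2 and 3) of genotype Ash2l cKO. The knockout was driven by D6-Cre, a Cre transgene active in the dorsal forebrain, so progenitors in which Cre was not active keep Ash2l. Whether WT embryos carried Cre, and whether embryos were pooled or the libraries came from separate cultures, is not given in the labels. The labels name dorsal cortex as the source, while their dissection text names the walls of the lateral ventricles, and which of these was cultured cannot be told. The p-values set the difference between KO and WT against the spread among libraries of a group, and some of that spread may be technical. The comparison asked which of these regulators differ between KO and WT spheres.

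In the embryo these genes divide the telencephalon into a dorsal part, the pallium, and a ventral part, and set positions within the cortex. PAX6 is high towards the front and side of the cortical neuroepithelium, while EMX2, the COUP transcription factors NR2F1 and NR2F2 and the DMRT factors are high towards the back or the midline. LHX2 keeps cortical cells from taking the fate of the cortical hem, the signalling centre at the medial edge, and GLI3 restrains ventral identity by opposing Sonic hedgehog. ASH2L belongs to every COMPASS complex, the enzymes that methylate lysine 4 of histone H3, a mark typical of active promoters.

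Total reads per library ran from 16764480 to 21983659, and levels are read counts scaled to library size by TMM (CPM) unless FPKM is named. Where 3 values stand for a group, they follow the order WT 3, WT 6, WT 7 or KO 1, KO 2, KO 3. Ash2l itself was at 109 to 116 CPM in WT and 86.3 to 102 CPM in KO, which did not pass the test (log2 fold change -0.24, SE 0.10, adjusted p = 0.119 by the quasi-likelihood test of edgeR, Benjamini-Hochberg over all tested genes). The count covers the whole gene, and the deleted exons are not given, so it does not check the labels. WT 3 stood nearer to the KO libraries than WT 6 and WT 7 did, at -25.5 on the first principal component against -81.7 and -85.7, with KO at 53.5 to 76.8. Summed levels of some cell type markers also differed between the groups. The summed level of 12 markers of cycling cells was 226 to 413 CPM in WT and 2159 to 2876 CPM in KO, and that of 12 astrocyte markers was 3561 to 10983 CPM in WT and 1418 to 1796 CPM in KO. That of 12 oligodendrocyte lineage markers was 4027 to 4875 CPM in WT and 1181 to 2186 CPM in KO. Among them Olig1 (736 to 1037 CPM in WT, 578 to 1148 CPM in KO) and Olig2 (510 to 655 and 416 to 737 CPM) did not pass. That of 12 neuronal markers was 1442 to 2684 CPM in WT and 2764 to 4124 CPM in KO, with WT 3 and KO 2 close together. Map2, its largest single part, was at 969 to 1095 CPM in WT and 771 to 1025 CPM in KO. Of the 12 neuronal markers 2 passed with all 6 libraries, and 0 without WT 6, WT 7, KO 1 or KO 2. Olig1, Olig2 and Map2 were named with their values in view. In bulk RNA, fewer cells of a type and less RNA per cell cannot be told apart, and the part of these shifts in the values below was not tested.

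Of the 9 patterning genes, Pax6 and Dmrta1 fell in KO, and 0 rose. Pax6 stood at 42.3% and Dmrta1 at 24.2% of the WT mean. Lhx2 and Emx2 had nearly equal means in the groups, and Nr2f1, Gli3, Dmrt3, Emx1 and Nr2f2 did not pass. The count of 2 of 9 called, or 22.2%, is below the 29% of all 16606 tested genes that passed in either direction, of which 13.5% were higher and 15.5% lower. CPM ranges of WT and KO were separate in 4 of the 9 (Pax6, Dmrta1 and Nr2f1 lower, Gli3 higher), against 48.6% of all tested genes (25.2% lower and 23.5% higher). The median log2 fold change was -0.34 over the 9 genes and 0.0019 over all tested genes. Nothing about the 9 as a set is read from these shares.

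**Figure D1:**
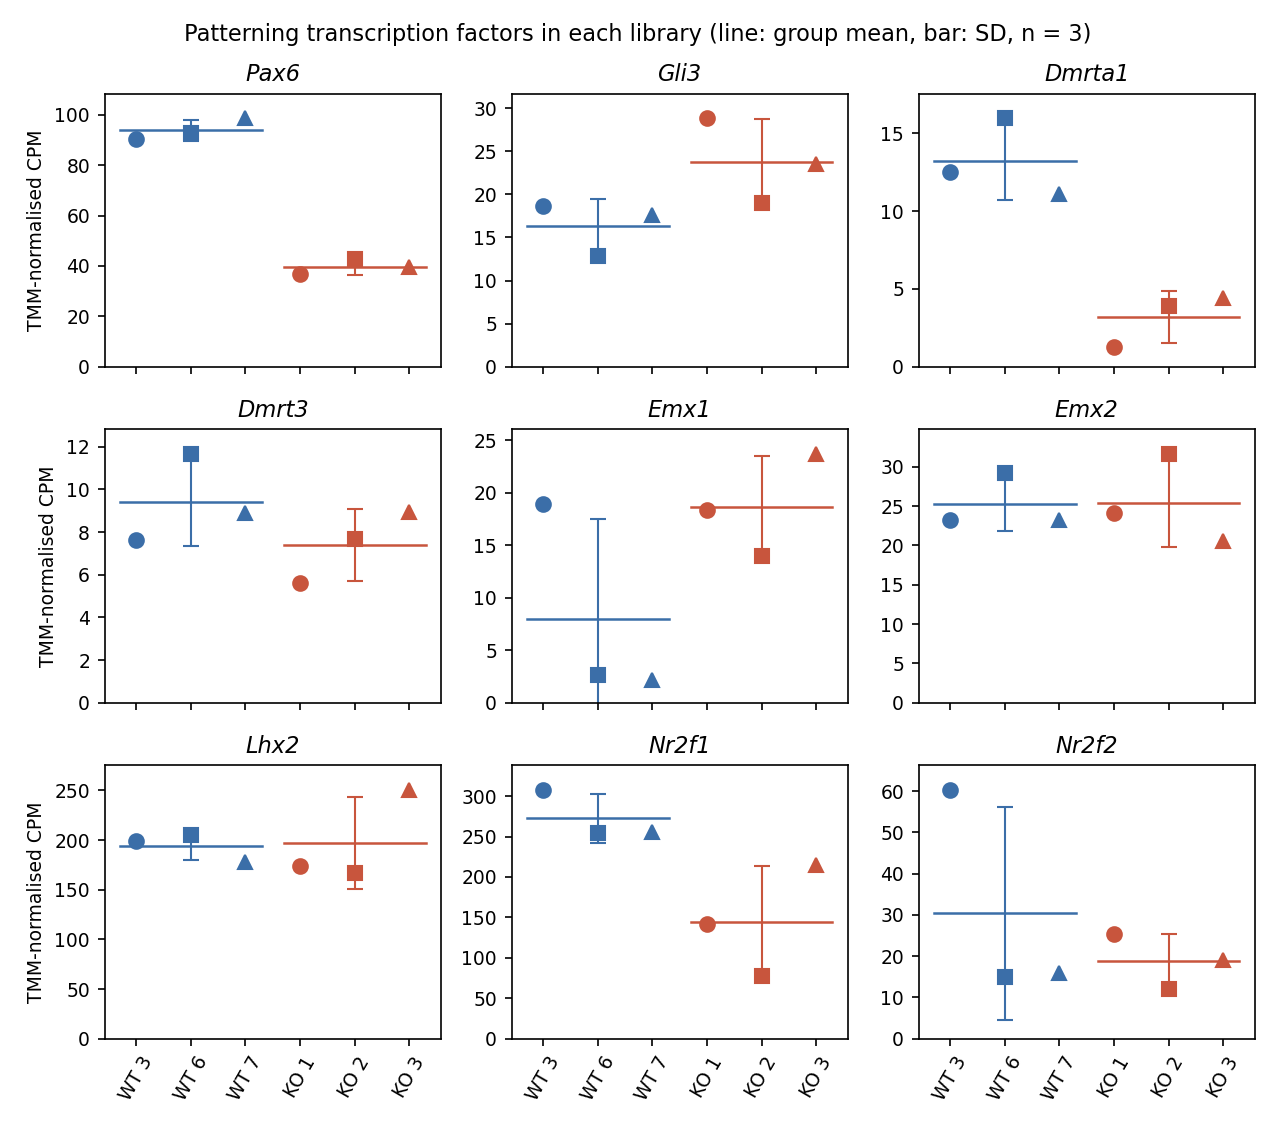
TMM-normalised CPM (vertical axes, each from 0) of the 9 genes in the 3 WT libraries (blue) and the 3 KO libraries (red), with the group mean as a line and the SD as a bar drawn at the middle library. Pax6 sits at 90.3 to 98.6 in WT and 36.7 to 42.9 in KO, while Emx1 and Nr2f2 have a single high WT library, WT 3, and the lower SD bar of Emx1 in WT is cut at 0.

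Pax6 (ENSMUSG00000027168, chromosome 2 from 105668900 to 105697364 on the plus strand, mm10) encodes the paired-box and homeodomain factor of cortical radial glia. It measured 90.3, 92.7 and 98.6 CPM in the WT libraries, against 36.7, 42.9 and 39.4 CPM in the KO libraries. The groups lay far apart and each was tight, with the highest library 1.09 times the lowest in WT and 1.17 times in KO. The mean fell from 93.9 ± 4.31 to 39.7 ± 3.14 CPM (SD, n = 3 each), 2.37-fold, with a log2 fold change of -1.24 (SE 0.10, 95% interval -1.49 to -0.997, adjusted p = 9.99e-04, edgeR). By p-value it ranked 103 of 16606 genes. WT 3, which stood apart in other genes, held 0.944 times the mean of WT 6 and WT 7. The call held whichever of the 6 libraries was left out, at log2 fold changes of -1.30 to -1.16, and under each of 8 other choices of scaling, filter, test or unit, at -1.24 to -0.99.

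RefSeq places 2 promoters at Pax6, shown because Pax6 fell in every fit and CpG-rich promoters are the usual sites of histone H3 lysine 4 trimethylation. Each sequence runs from 250 bases before to 50 after the start site, 5′ to 3′ on the strand of the gene, with CpG dinucleotides in capitals (RefSeq, build GRCm38.p6). The upstream one lies at chr2:105668646-105668945 and its start site is 4 bases before the gene start in the table. The other lies at chr2:105682213-105682512, inside the gene, 13563 bases downstream of that start. A count over the whole gene does not tell transcripts of the 2 apart.
Pax6 upstream promoter: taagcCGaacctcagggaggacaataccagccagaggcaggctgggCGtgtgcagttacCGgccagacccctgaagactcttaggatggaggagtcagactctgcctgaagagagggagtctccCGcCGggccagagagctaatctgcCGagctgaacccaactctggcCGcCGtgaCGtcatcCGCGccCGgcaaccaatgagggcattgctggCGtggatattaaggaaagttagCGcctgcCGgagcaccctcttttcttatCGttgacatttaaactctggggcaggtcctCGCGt
Pax6 internal promoter: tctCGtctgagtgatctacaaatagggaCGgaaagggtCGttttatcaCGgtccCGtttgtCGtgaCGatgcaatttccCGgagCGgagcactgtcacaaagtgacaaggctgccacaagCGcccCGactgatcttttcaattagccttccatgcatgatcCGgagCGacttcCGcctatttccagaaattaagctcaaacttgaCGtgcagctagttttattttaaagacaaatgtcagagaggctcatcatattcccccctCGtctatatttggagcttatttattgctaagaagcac
They hold 18 and 16 CpG dinucleotides, above the median of 7 in the 32851 RefSeq promoters of the same length and below their upper quartile of 20. The upstream one has a CCAAT box, at -54 from the start site, as do 37.4% of all promoters.

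Genes known from other work to depend on these factors were examined next. Eomes, the T-box gene of intermediate progenitors, was at 9.59, 4.17 and 3.17 CPM among WT libraries and 0.519, 0.864 and 1.47 CPM among KO libraries. It fell (log2 fold change -2.55, SE 0.57, adjusted p = 0.0173, edgeR), a call that ended without KO 1 or KO 2. Of 19 listed downstream genes 17 were tested, 6 of which fell and 3 rose (Nrp1, Lhx5 and Tfap2c, the first named because it completes the count), around a median log2 fold change of -0.06. Over all tested genes 15.5% fell and 13.5% rose, the shares to set beside this and each later list. With 1 library left out 3 to 6 fell and 0 to 4 rose, with 3 and 0 without WT 6, WT 7 or KO 1, and 4 and 1 without KO 2. The Notch effector Hes5 (-2.97, SE 0.38) and the POU factor Pou3f2 (-0.82, SE 0.15) fell whichever library was left out. The hedgehog receptor Ptch1 fell too (-1.46, SE 0.32), a call that ended without WT 6, WT 7, KO 1 or KO 3. Fabp7, a known Pax6 target chosen with its values in view, averaged 1672 (WT) and 1599 CPM (KO) (log2 fold change -0.06, SE 0.27, adjusted p = 0.87, edgeR). Neurog2, of the same list and also named with its values in view, stood lower in KO but did not pass. It measured 41.1, 47.4 and 27.1 CPM in WT against 1.56, 3.13 and 17.3 CPM in KO (-2.38, SE 0.81, adjusted p = 0.065, edgeR).

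The DMRT genes encode zinc finger factors of the doublesex family that act in the medial cortex and the neurogenic pallium. Dmrta1 (ENSMUSG00000043753, chromosome 4 from 89679436 to 89694772, plus strand) measured 12.5, 16.0 and 11.1 CPM in WT spheres, with 1.27, 3.89 and 4.45 CPM in KO spheres. Every KO library lay below every WT library, and KO 1, with 22 reads, was lowest. The mean went from 13.2 ± 2.49 to 3.2 ± 1.70 CPM (SD, n = 3 each), 4.10-fold lower (log2 fold change -2.04, SE 0.45, 95% interval -3.10 to -0.97, adjusted p = 0.017, edgeR). This was the largest difference among the 9 genes in the fit of all 6 libraries. Leaving out WT 6 (-1.88, adjusted p = 0.063) or KO 2 (-2.19, adjusted p = 0.0532) ended the call, in fits that called 12.8% and 14.6% of all genes tested. The value was -1.64 without KO 1.

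Dmrt3 (ENSMUSG00000042372, chromosome 19 from 25610537 to 25623920, plus strand) measured 7.63, 11.6 and 8.90 CPM (WT), then 5.59, 7.67 and 8.94 CPM (KO). The groups overlapped, and the log2 fold change of -0.34 (SE 0.27, 95% interval -0.97 to 0.29) did not pass (adjusted p = 0.352, edgeR). The ratio of Dmrt3 to Dmrta1 in FPKM, which divides reads by gene length, was 1.07, 1.28 and 1.40 for WT against 7.74, 3.46 and 3.53 for KO. In WT the pair were thus at similar levels per length, and in KO Dmrt3 was the higher in each library. Dmrta2, their relative in the hem and medial cortex named with its values in view, averaged 46.3 (WT) and 38.7 CPM (KO) (-0.26, SE 0.17, adjusted p = 0.283, edgeR). Dmrt3 lies in a row with Dmrt1 and Dmrt2 on chromosome 19. Dmrt2 had 15, 1 and 1 reads in WT against 79, 48 and 34 reads in KO, and rose (3.25, SE 0.95, adjusted p = 0.0419, edgeR), a call that held only without WT 3 (5.72) among the 6 leave-one-out fits. Dmrt1 had 0 to 10 reads per library.

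The promoter of Dmrta1, the gene with the largest drop, lies at chr4:89687948-89688247 (RefSeq, build GRCm38.p6, CpG in capitals), 8762 bases downstream of the gene start in the table and at the start of a protein-coding GENCODE M21 transcript.
Dmrta1 promoter: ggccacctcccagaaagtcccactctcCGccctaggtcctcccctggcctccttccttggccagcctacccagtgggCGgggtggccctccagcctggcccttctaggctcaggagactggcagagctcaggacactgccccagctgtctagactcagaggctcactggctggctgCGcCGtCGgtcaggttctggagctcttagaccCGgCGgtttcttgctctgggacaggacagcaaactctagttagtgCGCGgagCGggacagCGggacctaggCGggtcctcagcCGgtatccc
It holds 13 CpG dinucleotides, with an observed to expected ratio of 0.408, and 2 GC boxes (GGGCGG on either strand) at -224 and -176 from the start site. GC boxes occur in 35.7% of all RefSeq promoters. The Dmrt3 promoter holds 15 CpG dinucleotides at a ratio of 0.471.

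The Emx pair encode homeodomain factors of the dorsal telencephalon, and EMX2 is required for the caudal and medial cortex. Emx1 (ENSMUSG00000033726, chromosome 6 from 85187438 to 85204462, plus strand) measured 19.0, 2.66 and 2.18 CPM in the WT libraries, against 18.3, 14.0 and 23.6 CPM in the KO libraries. WT 3 lay within the KO range, while WT 6 and WT 7, with 53 and 46 reads, lay far below it. The means were 7.93 ± 9.55 and 18.7 ± 4.84 CPM (SD, n = 3 each), and the difference did not pass (log2 fold change 1.24, SE 0.80, 95% interval -0.65 to 3.13, adjusted p = 0.27, edgeR). Without WT 3 it passed at 2.94 (SE 0.31, adjusted p = 6.11e-04), in a fit that called 38.2% of genes. It also passed at 2.57 (adjusted p = 0.00197) with limma-voom, which weights libraries unequally and called 48.5% of genes. The result for Emx1 thus rests on whether WT 3 is included. WT 3 also had a summed level of astrocyte markers of 3561 CPM against 10288 and 10983 CPM in WT 6 and WT 7. Its summed level of neuronal markers was 2684 CPM against 1646 and 1442 CPM in WT 6 and WT 7. In KO 1, KO 2 and KO 3 the neuronal sum was 4124, 2764 and 3050 CPM. The part of either in the Emx1 values was not tested. WT 3 held 7.84 times the mean of WT 6 and WT 7, a higher ratio than in 99.3% of 13667 genes with a mean of at least 2 CPM.

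Emx2 (ENSMUSG00000043969, chromosome 19 from 59458372 to 59465357, plus strand) did not share that pattern. It measured 23.2, 29.2 and 23.2 CPM among WT libraries and 24.1, 31.6 and 20.5 CPM among KO libraries. The group means of 25.2 ± 3.46 and 25.4 ± 5.64 CPM (SD, n = 3 each) gave a log2 fold change of 0.0092 (SE 0.20, adjusted p = 0.976, edgeR), and its 95% interval leaves room for a KO level of 0.727 to 1.39 times that of WT. The ratio of Emx1 to Emx2 in FPKM came to 1.12, 0.125 and 0.129 over the WT libraries and 1.05, 0.609 and 1.58 over the KO libraries. The ratio of WT 3 thus lay within the KO range, and those of WT 6 and WT 7 below it. Emx2os, an antisense gene that starts head to head with Emx2 and overlaps its first bases, had 29.1% as many reads as Emx2 and did not pass (-0.43, SE 0.25, adjusted p = 0.22, edgeR). The strand setting of the counting is not given, so reads of the overlap cannot be assigned to either.

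The promoters of the pair are shown for comparison, since both are CpG-rich while their counts behave differently (RefSeq, GRCm38.p6, CpG in capitals). That of Emx1 lies at chr6:85187681-85187980 and that of Emx2 at chr19:59458440-59458739.
Emx1 promoter: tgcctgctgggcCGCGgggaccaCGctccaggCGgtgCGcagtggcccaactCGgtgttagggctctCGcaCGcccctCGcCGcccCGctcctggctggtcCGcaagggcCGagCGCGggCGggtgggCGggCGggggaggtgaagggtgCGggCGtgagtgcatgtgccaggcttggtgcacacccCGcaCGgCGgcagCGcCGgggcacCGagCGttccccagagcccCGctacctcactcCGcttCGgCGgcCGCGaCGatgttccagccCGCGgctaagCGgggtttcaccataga
Emx2 promoter: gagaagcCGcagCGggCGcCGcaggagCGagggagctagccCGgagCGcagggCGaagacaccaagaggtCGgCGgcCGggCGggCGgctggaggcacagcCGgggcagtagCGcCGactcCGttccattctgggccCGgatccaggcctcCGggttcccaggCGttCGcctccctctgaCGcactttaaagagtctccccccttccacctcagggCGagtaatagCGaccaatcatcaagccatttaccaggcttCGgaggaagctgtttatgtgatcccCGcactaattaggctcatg
Emx1 holds 37 CpG dinucleotides and 4 GC boxes, and Emx2 holds 26 CpG dinucleotides and 2 GC boxes. Emx2 has the only match among the 12 promoters of the 9 genes to the homeodomain core TAATTA, at 36 bases after its start site, a motif found in 5.29% of all promoters.

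Lhx2 (ENSMUSG00000000247, chromosome 2 from 38339281 to 38369733, plus strand) encodes the LIM homeodomain factor that selects cortical over hem fate. It measured 199, 205 and 178 CPM in WT spheres, with 174, 167 and 250.1 CPM in KO spheres. The groups overlapped, with KO 3 highest of all 6. The means of 194 ± 14.3 and 197 ± 46 CPM (SD, n = 3 each) gave a log2 fold change of 0.02 (SE 0.17, adjusted p = 0.935, edgeR), and the 95% interval runs from 0.765 to 1.35 times the WT level. Its cofactor Ldb1, which bridges LIM homeodomain proteins, was at 260.5, 268.9 and 248.8 CPM (WT), then 153, 154 and 217 CPM (KO). Ldb1 fell (-0.57, SE 0.16, adjusted p = 0.034, edgeR), a call that ended without WT 6, WT 7, KO 1 or KO 2. Of 18 listed partners and regulators of the 9 factors, all tested, 4 fell and 0 rose, around a median log2 fold change of -0.05. The fallers were 1 without WT 6, KO 1 or KO 2 and 2 without WT 7, and 3 rose without WT 3. Besides Ldb1 they were Smarcc2, a BAF complex subunit (-0.65, SE 0.11), the TALE homeodomain gene Meis1 (-1.16, SE 0.25) and Kif7, a regulator of GLI proteins at the cilium (-0.50, SE 0.14). The call of Smarcc2 held whichever library was left out. That of Meis1 was lost on leaving out WT 6, KO 1 or KO 2, and Kif7 lost its call in every leave-one-out fit except that without KO 3.

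Gli3 (ENSMUSG00000021318, chromosome 13 from 15463235 to 15730026, plus strand) encodes the zinc finger factor that acts mainly as a repressor of hedgehog targets in the pallium. It measured 18.6, 12.9 and 17.6 CPM in the WT libraries, against 28.8, 18.9 and 23.6 CPM in the KO libraries. All KO libraries lay above all WT libraries, though KO 2 exceeded WT 3 only narrowly. The log2 fold change was 0.54 (SE 0.22, 95% interval 0.02 to 1.06) and did not pass (adjusted p = 0.104, edgeR), except with limma-voom (0.63, adjusted p = 0.037). Its activator relative Gli2, also named with values in view, averaged 29.5 (WT) and 17.3 CPM (KO) (-0.77, SE 0.28, adjusted p = 0.0751, edgeR). Ptch1, a target of hedgehog signalling, fell as given above, a call lost in some leave-one-out fits. Hhip, also in the downstream list and named with its values in view, averaged 5.85 (WT) and 5.62 CPM (KO) (-0.06, SE 0.40, adjusted p = 0.924, edgeR). Gli1 did not pass the filter.

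Nr2f1 and Nr2f2 encode the nuclear receptors COUP-TFI and COUP-TFII, the former a main regulator of caudal cortical areas and the latter most used in caudal and ventral progenitors. Nr2f1 (ENSMUSG00000069171, chromosome 13 from 78188973 to 78199757, minus strand) measured 307, 254 and 256 CPM among WT libraries and 142, 77.1 and 214 CPM among KO libraries. The groups did not overlap, but KO spread 2.78-fold from KO 2 to KO 3, against 1.21-fold within WT. The means were 273 ± 30.1 and 145 ± 68.7 CPM (SD, n = 3 each), and the log2 fold change of -0.91 (SE 0.34, 95% interval -1.71 to -0.12) did not pass (adjusted p = 0.0799, edgeR). Leaving out KO 3 brought it past the threshold (-1.31, adjusted p = 0.0209), in a fit that called 25.1% of genes. So did DESeq2 (adjusted p = 0.025), which called 28.3%, a fit of unfiltered genes (adjusted p = 0.0206), which called 15.6%, and limma-voom (adjusted p = 0.012). It stood at -0.61 without KO 2.

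A830082K12Rik, an antisense gene whose span overlaps the start of Nr2f1, had 656, 726 and 833 reads in WT against 330, 252 and 606 reads in KO. It followed the same order of KO libraries and fell (log2 fold change -0.88, SE 0.26, adjusted p = 0.044, edgeR), a call that ended without WT 6, WT 7, KO 1 or KO 2. It had 14% as many reads as Nr2f1, and without strand the reads of the overlap cannot be told apart.

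Nr2f2 (ENSMUSG00000030551, chromosome 7 from 70351944 to 70366735, minus strand) measured 60.2, 14.9 and 16.0 CPM in WT spheres, with 25.3, 11.9 and 19.0 CPM in KO spheres. WT 3 was the highest of the 6, and WT 6 and WT 7 lay within the KO range. The log2 fold change of -0.69 (SE 0.58, 95% interval -2.06 to 0.68) did not pass (adjusted p = 0.387, edgeR) and changed sign without WT 3, to 0.28 (SE 0.30, adjusted p = 0.495). WT 3 held 3.91 times the mean of WT 6 and WT 7, a higher ratio than in 97.4% of 13667 genes. Emx1 and Nr2f2 were thus both high in WT 3, but only Emx1 was also high in all KO libraries. For the other 7 genes WT 3 lay between 0.742 and 1.22 times the mean of WT 6 and WT 7.

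**Figure D2:**
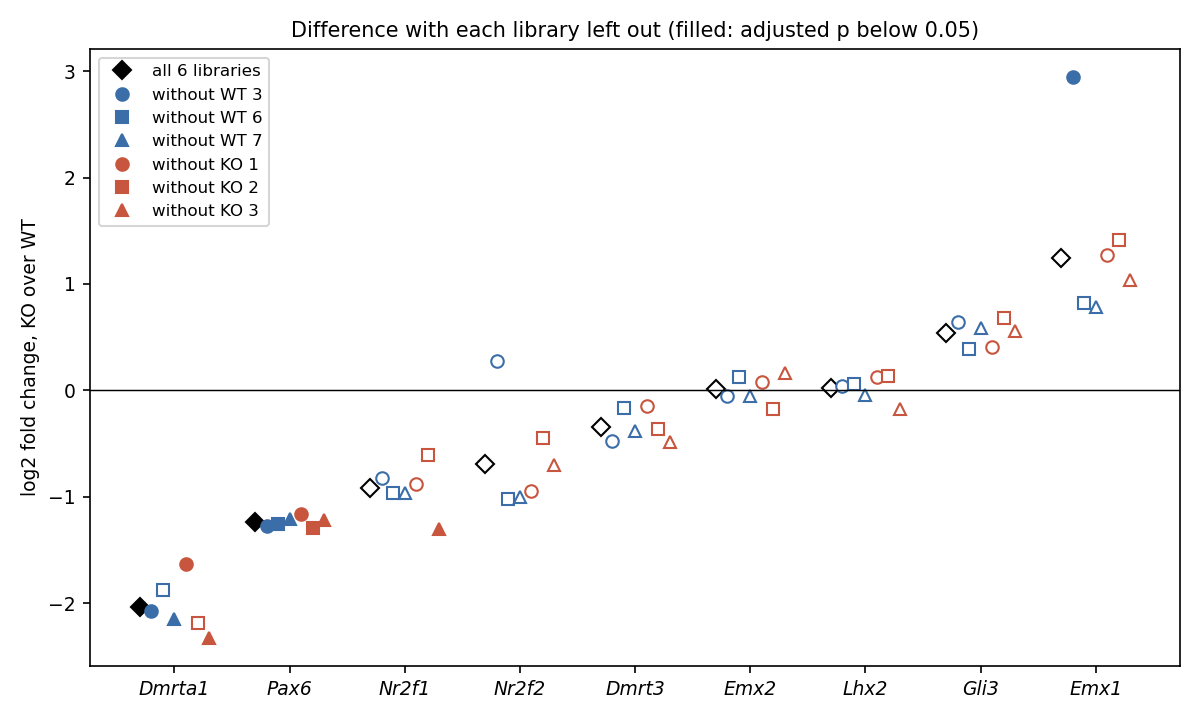
Log2 fold change of KO over WT (vertical axis, edgeR) of each gene with all 6 libraries (black diamonds) and with 1 library left out (blue, a WT library; red, a KO library), filled where the adjusted p is below 0.05. Pax6 stays between -1.30 and -1.16 with every point filled, Emx1 moves to 2.94 and Nr2f2 to 0.28 without WT 3, and Nr2f1 is filled only without KO 3.

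Compared per gene length, Nr2f1 and Lhx2 were the most abundant of the 9 in every library. Nr2f1 stood at 52.5 ± 7.56 FPKM in WT and 28.9 ± 13.5 FPKM in KO, and Lhx2 at 43.3 ± 3.80 and 45.7 ± 10.1 FPKM (SD, n = 3 each). Nr2f1 led in all 3 WT libraries and Lhx2 in all 3 KO libraries. Together they made up 65.4% to 76.9% of the summed FPKM of the 9 genes. In WT the next were Emx2 at 8.21 ± 1.0 and Pax6 at 7.85 ± 0.25 FPKM, which differed by less than the spread of Emx2. Dmrt3 (3.83 ± 0.752), Emx1 (3.64 ± 4.47), Nr2f2 (3.5 ± 3.10) and Dmrta1 (3.08 ± 0.554 FPKM) followed within their spread of each other, and Gli3 was lowest by mean at 1.67 ± 0.35 FPKM. In KO, Emx1 (8.70 ± 2.19) and Emx2 (8.63 ± 1.93 FPKM) came next after Lhx2 and Nr2f1. They were followed by Pax6 (3.46 ± 0.25), Dmrt3 (3.15 ± 0.679), Gli3 (2.53 ± 0.553) and Nr2f2 (2.22 ± 0.815 FPKM), and Dmrta1 was last in each KO library at 0.774 ± 0.404 FPKM. The summed FPKM of the 9 genes was 113 to 147 in WT and 82.7 to 130.4 in KO, ranges that overlap.

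**Figure D3:**
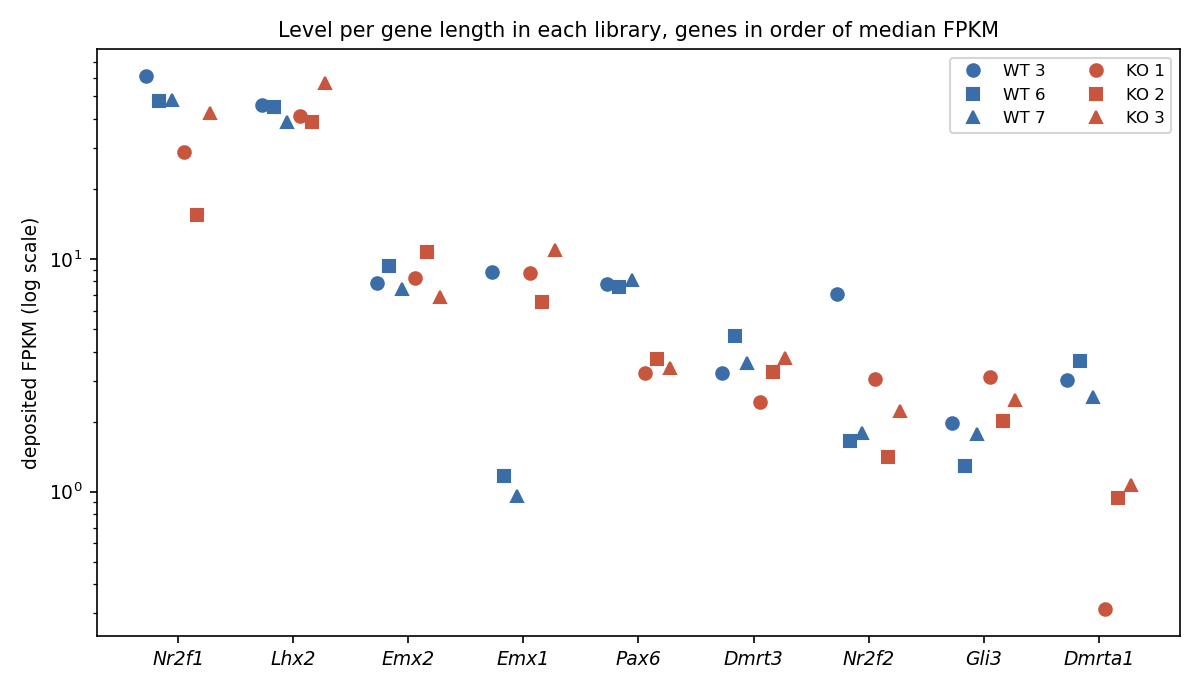
Deposited FPKM on a log axis for each gene and library (blue, WT; red, KO), with genes ordered by their median over the 6 libraries. Nr2f1 and Lhx2 lie above the other 7 genes in every library, and Dmrta1 falls below all others in KO, at 0.313 to 1.07.

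**Figure D4:**
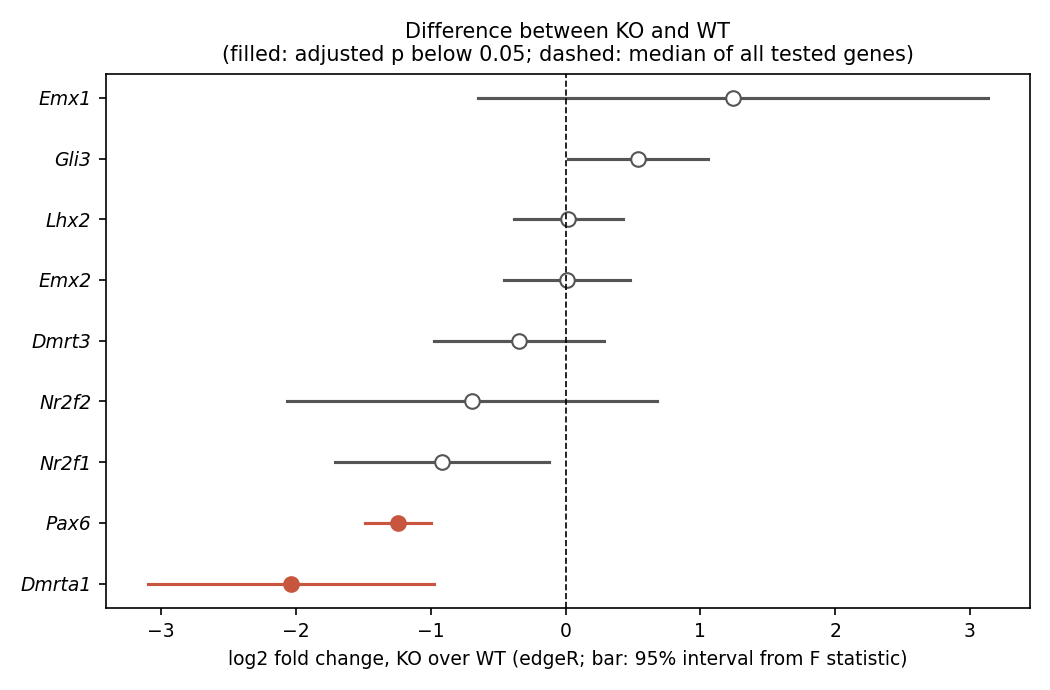
Log2 fold change of KO over WT (horizontal axis) with its 95% interval for the 9 genes, filled where the adjusted p is below 0.05, and the median of all 16606 tested genes as a dashed line. Only Pax6 and Dmrta1 are filled, and the intervals of Emx1 (-0.65 to 3.13) and Nr2f2 (-2.06 to 0.68) are the widest.

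The genes whose pattern over the 6 libraries was nearest to each of the 9 were found by the root mean square difference of log2 CPM, each gene centred on its own mean, among 12461 other protein-coding genes with a mean of at least 2 CPM. For Pax6 the nearest was Tshz1, a zinc finger gene, at a difference of 0.06, with 93.3 to 106 CPM in WT and 39.6 to 47.8 CPM in KO. Pex11g and Rffl followed at 0.08 and 0.09. For Emx1 they were Cgn, Isyna1 and Lrrc3 (0.11 to 0.14), and Cgn, which encodes the tight junction protein cingulin, stood at 11.8, 1.76 and 1.56 CPM over WT and 10.5 to 16.6 CPM over KO. For Nr2f1 the nearest was the Wnt receptor gene Fzd7 (0.14), at 34.3 to 38.7 CPM in WT and 17.6, 10.6 and 30.2 CPM over KO, followed by Afmid and Fam117a. Nr2f2 had no close neighbour, the nearest being the BMP target Id1 at 0.25, with 122 CPM in WT 3 and 37.2 to 55.9 CPM in the other 5. Those of Dmrta1 were Pllp, Ppp1r3c and the glial SoxE gene Sox8 (0.22 to 0.25), and those of Gli3 were Foxp1, Hs6st1 and Fzd5 (0.05 to 0.09). Emx2 lay nearest to Ubac2, Glrb and Ppp6c (0.07 to 0.08), Lhx2 to AW209491, Rassf1 and Ascc1 (0.04 to 0.07), and Dmrt3 to Iah1, Ndufa1 and Psenen (0.07 to 0.09).

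Of 18 other transcription factors of the forebrain 16 were tested, of which 3 fell and 2 rose, beside 15.5% and 13.5% of all tested genes, around a median log2 fold change of 0.13. With 1 library left out 2 to 5 fell and 0 to 4 rose, the risers being 0 without WT 6, WT 7, KO 1 or KO 2, 1 without KO 3 and 4 without WT 3. Tcf7l1, a TCF repressor of the anterior neural plate, fell (-1.96, SE 0.21) whichever library was left out. Otx1, a cortical homeodomain gene, fell (-0.57, SE 0.11), though not without WT 7. Tfap2c (2.90, SE 0.86) rose from a mean of 0.2 CPM in WT, and among the leave-one-out fits its call held only without WT 3.

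Among 18 secreted signals and hem genes, 11 were tested, of which 2 rose and 1 fell, with a median of 0.83. The risers were 5 without WT 3, 4 without KO 3, 3 without WT 7 and 1 without KO 1 or KO 2, and the fallers were 0 without KO 1 or KO 2 and 2 without KO 3. Bmp7 rose from 19.0, 29.0 and 23.8 CPM (WT) to 60.8, 122 and 69.1 CPM (KO) (1.81, SE 0.30), whichever library was left out. Bmp4 fell (-4.19, SE 1.03), from 92.9 CPM in WT 3 and 24.7 and 28.5 CPM in WT 6 and WT 7 to 0.576, 0.648 and 6.57 CPM over KO. Its call ended without KO 1 or KO 2, and it stood at -6.28 without KO 3 and -3.32 without WT 3. Fgf18 rose from about 0.514 to 1.66 CPM (1.68, SE 0.44), a call that ended without WT 6, WT 7, KO 1 or KO 2. The hem genes Wnt3a, Wnt8b and Lmx1a were among the 7 that did not pass the filter.

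Of 27 family paralogs 13 were tested, of which 3 rose and 2 fell, with a median of -0.26. The risers were 0 without WT 6, WT 7, KO 1 or KO 2, and the fallers were 5 without WT 3 and 1 without WT 6, WT 7 or KO 1. Nr2e1, the Tlx gene of neural stem cells, fell (-0.89, SE 0.12) whichever library was left out, and Nr2c1 fell (-0.68, SE 0.15), a call that ended without WT 6, WT 7, KO 1 or KO 2. Lhx5 (4.03, SE 1.05), a LIM gene of the hem and of Cajal-Retzius cells, rose along with Dmrt2 and Lhx1 (2.81, SE 0.87), the last named because it completes the count. Lhx5 was at 0.954, 0.0502 and 0.142 CPM (WT), then 11.4, 5.29 and 1.70 CPM (KO). The calls of Lhx5 and Lhx1 ended without WT 6, WT 7, KO 1 or KO 2. None of the 8 other Pax genes passed the filter.

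Of 18 markers of the ventral forebrain 13 were tested, 2 fell and 1 rose, around a median of -0.02. With any 1 library left out at most 1 fell and at most 1 rose. Gsx2, the factor opposed to PAX6 at the pallial boundary, was at 7.74, 3.21 and 3.17 CPM in the WT libraries, against 0.576, 1.57 and 1.84 CPM in the KO libraries. It fell (-1.81, SE 0.55, adjusted p = 0.0467, edgeR), a call that ended whichever library was left out. Nkx6-2 fell (-2.64, SE 0.62), though not without WT 7, KO 1 or KO 3. Dlx2 did not pass (-1.46, SE 0.49, adjusted p = 0.0628, edgeR). Nkx2-1, the marker of the medial ganglionic eminence, did not pass the filter.

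All 15 radial glia and stem cell markers passed the filter, of which 8 fell and 1 rose, beside 15.5% and 13.5% of all tested genes, with a median of -0.65. The fallers were 4 without WT 6 or WT 7, 5 without KO 1 or KO 2, 6 without KO 3 and 8 without WT 3. Nes, an intermediate filament of neural progenitors, rose (2.21, SE 0.26), and Hes5, Id4 (-2.24, SE 0.30) and Nr2e1 fell, each whichever library was left out. All 12 cycling markers rose (median 3.34), also with any 1 library left out, and those with the lowest p were Mcm2 (3.02, SE 0.15), Mcm3, Pcna and Mcm5. Of 12 astrocyte markers 9 fell (7 to 10 with 1 library left out), those with the lowest p being Agt (-6.27, SE 0.33), S100b, Clu and Gja1. Of 12 oligodendrocyte markers 8 fell, among them Cnp (-3.42, SE 0.36), Pdgfra and Mag. With 1 library left out 6 to 7 of these 12 fell, and 1 rose without WT 3. The 4 not called, named with their values in view, were Olig1 (-0.11, SE 0.27), Olig2 (-0.02, SE 0.22), Cspg4 (0.51, SE 0.40) and Mog (0.93, SE 0.75). Of 12 neuronal markers 2 rose, Gap43 (1.67, SE 0.44) and Syp (1.25, SE 0.37), and both calls held only without WT 3. Without WT 3, 9 of the 12 rose, with a median of 2.27, while 0 did without WT 6, WT 7, KO 1 or KO 2 and 1 without KO 3. Of 12 COMPASS subunits Dpy30 (0.88, SE 0.11) and Wdr5 (0.61, SE 0.10) rose and 0 fell. Of 9 choroid plexus and hem markers 6 were tested and 0 called, and their summed level was 5.3 to 125 CPM in WT and 79.7 to 263 CPM in KO. Ttr, named with its values in view, made up most of that sum in all libraries except WT 3. It was at 0.112, 117 and 53.1 CPM in WT and 70.6, 238 and 81.0 CPM in KO. Of 13 mural, endothelial and meningeal markers 11 were tested. Acta2 (3.29, SE 0.46) and Lum (4.25, SE 1.23) rose and Kdr (-2.07, SE 0.35) fell, with 1 to 3 risers when 1 library was left out. The sum of this list was 92.7 to 131.5 CPM in WT and 155 to 464 CPM in KO. Cspg4, also counted among the oligodendrocyte markers, made up most of it in all libraries except KO 1. It was at 55.3 to 95.2 CPM in WT and 47.6, 119 and 141 CPM in KO. Most of the KO 1 sum was Col1a1 and Col1a2, at 177 and 136 CPM. They were at 11.3 and 7.18 CPM in KO 2 and 29.3 and 14.1 CPM in KO 3. Cspg4, Col1a1 and Col1a2 were named here with their values in view and did not pass. Lum measured 22.8 CPM in KO 1 against 1.46 and 1.47 CPM in KO 2 and KO 3. It stood at 1.73 without KO 1, and its call ended without any of the WT libraries. Of 8 microglia and blood markers 2 were tested and 0 called, with sums of 0.2 to 5 CPM.

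On the genome, the 9 genes lie on 6 chromosomes, and the nearest tested protein-coding gene on each side was examined. Of these 18 neighbours 7 fell and 2 rose, beside 15.5% and 13.5% of all tested genes. Distances ran from 3.66 to 3009 kb, and the fallers included Arrdc3, 2684 kb from Nr2f1, and Rgma, 3009 kb from Nr2f2. The risers were Nek6, 142 kb from Lhx2, and Dmrt2, counted above among the paralogs. The count was not repeated with a library left out, and whether position plays a part was not tested. Elp4, which lies 3.66 kb beyond the end of Pax6 and whose gene body is known to hold Pax6 enhancers, fell (-0.62, SE 0.17, adjusted p = 0.0358, edgeR), a call that held only without WT 3 among the leave-one-out fits, and Rcn1 on the other side did not pass (-0.13, SE 0.15, adjusted p = 0.537). Sfxn5, 8.59 kb from Emx1, fell (-1.75, SE 0.36, adjusted p = 0.0128), though not without KO 1, and Fam172a, 22.7 kb from Nr2f1, fell (-0.93, SE 0.15, adjusted p = 0.00565). Both neighbours of Emx2, Pdzd8 (-0.09) and Rab11fip2 (-0.12), did not pass. These neighbours were chosen by position after the values of the 9 genes were seen.

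The 12 RefSeq promoters of the 9 genes held 2 to 39 CpG dinucleotides, with a median of 20.5 against 7 over all 32851 promoters. Gli3 (39), Emx1 (37) and Lhx2 (34 and 29) were richest, and Nr2f2 (2) and the second promoter of Nr2f1 (4) were poorest. The promoters of the genes that fell, Pax6 (18 and 16) and Dmrta1 (13), were below the median of the 12, as were those of Dmrt3 (15) and Nr2f2, which did not pass. This is a description only. The TATA box TATAAA, the nuclear receptor half-site AGGTCA and the GLI site GACCACCCA, searched on both strands, were in 0 of the 12 windows, and in 13.6%, 16.3% and 0.253% of all promoters.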

How the data were processed

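RNA libraries of neurospheres, 3 WT and 3 KO, were sequenced, from 3 µg of RNA each. Per the submitters' processing notes, reads were handled with HISAT2 2.0.5, featureCounts 1.5.0-p3 and DESeq2 1.16.1 on mm10, while their settings are not stated. Per the file headers, the deposited table has raw whole-number counts for each gene beside the authors' FPKM, whose columns carry the same header words as the counts. Multiplied by gene length and total, all 54 FPKM values of the 9 genes gave back their counts within 0.5 reads.

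Groups and replicate numbers came from the titles. Counts were scaled by TMM (factors 0.961 to 1.04), filtered by filterByExpr to 16606 genes, and tested in a single fit of all 6 libraries without covariates (edgeR 4.0.16, R 4.3.3, two-sided quasi-likelihood F test, Benjamini-Hochberg over all tested genes, threshold 0.05). The SE is the absolute log2 fold change divided by the square root of F, and 95% intervals use the total degrees of freedom. Biological variation came to 26.5% (square root of the common dispersion). With 3 libraries a group, no exact permutation p can be under 0.1, so none was computed. A floor of 3 reads corresponds to 0.142 to 0.173 CPM, and every count of the 9 genes was above it. Every pair of libraries differed beyond sampling noise, the smallest chi-square being 15.9 for each degree of freedom. For principal components and nearest patterns, log2 CPM had a prior count of 2.

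The 9 genes and the 15 context lists were chosen with earlier results of these data known. Lists are described by counts and medians, without set tests. Named beside the 9 genes are Ash2l, the up to 4 tested genes of each list with the lowest p, the 3 nearest in pattern to each gene and genes overlapping one of the 9. Others are said to be chosen after their values were seen. Some genes of the lists are counted but not reported here by name. Promoter sequences are from RefSeq (GRCm38.p6), which had all 9 genes, and protein sequences were not used. Alternatives were RLE size factors, library totals, no filter, 1 CPM in 3 libraries, limma-voom with library weights (limma 3.58.1), DESeq2 1.42.0, limma on log2 FPKM with a pseudocount of 1 or 0.1 where mean FPKM reached 0.5, and leaving out each library.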

Additional observations from a re-analysis of the deposited data

How the results depend on the processing

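Over 126 values of the 9 genes under 14 alternatives each, 109 kept both sign and call, 2 calls were lost (Dmrta1 without WT 6 or KO 2), 7 were gained (Nr2f1 in 4, Emx1 in 2, Gli3 in 1) and 8 values changed sign. With limma-voom, Emx2 was at -0.022 and Lhx2 at -0.086. Leaving out 1 library, Emx2 ran from -0.18 to 0.16 (below 0 without WT 3, WT 7 or KO 2), Lhx2 from -0.17 to 0.13 (below 0 without WT 7 or KO 3) and Nr2f2 from -1.03 to 0.28 (above 0 without WT 3). The cause was not tested. With limma-voom 5 of the 9 were called, 2 higher, and 8052 genes in all (4133 higher and 3919 lower). Leaving out 1 library gave 2178 to 6641 calls over all genes, 1027 to 3500 higher and 1151 to 3141 lower, and 1 to 3 of the 9, of which 0 to 1 higher and 1 to 3 lower. Of 180 counts over the context lists with 1 library left out, 120 stayed within 1.5 times. No paired analysis was possible because the groups share only replicate number 3. Genes with few reads, such as Dmrta1 in KO 1, have wide intervals, and Emx1 and Nr2f2 turn on WT 3. The median log2 fold change of all genes was 0.14 without a filter and 0.155 with DESeq2, fits that also kept genes with few reads. The values of the 9 genes did not shift with that median. Pax6 stood at -1.238 and -1.232 in these fits against -1.242 in the main fit, and Emx2 at 0.015 and 0.020 against 0.0092.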
